A study of Saccharomyces cerevisiae with 13 samples.

Results

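The HSP30 family of the budding yeast Saccharomyces cerevisiae comprises 3 genes for related plasma membrane proteins, HSP30 (YCR021C, chromosome III), YRO2 (YBR054W, chromosome II) and MRH1 (YDR033W, chromosome IV). They were taken by annotation from the 5656 genes that the array's probe sets name singly, and each gene was read by 1 probe set. The genes were chosen by annotation, but the family was selected on earlier results of these arrays, the differences between control, spermidine and spermine signals. Its group differences are therefore given as descriptions with standard errors and intervals, without p-values.

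Proteins of this family cross the plasma membrane several times and resemble the opsin-like membrane proteins of other fungi. Hsp30 is known as a stress-induced protein that restrains Pma1, the proton pump that uses ATP to keep the cytoplasm from acidifying, and its gene is induced by heat, ethanol, weak organic acids and glucose limitation. YRO2 is a target of Haa1, the transcription factor of the acetic acid response, while Mrh1, named as a membrane protein related to Hsp30, is found mainly in the plasma membrane.

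The data are signals of 13 Affymetrix arrays, each reading biotin-labelled total RNA of 1 sample: 5 controls, 5 samples treated with spermidine and 3 treated with spermine. The treated groups are labelled delta-spe3 delta-fms1, that is, without spermidine synthase (Spe3) and the oxidase Fms1, which converts spermine to spermidine, and the title of the series calls the mutant polyamine-deficient. Control labels name no genotype. On all 13 arrays the signals of SPE3 (at most 13.8) and FMS1 (at most 8.10) lay below the background level of the array, set as the 95th percentile over 19 control probe sets of other organisms. Spermidine and spermine are polyamines, small positively charged molecules, spermine carrying an additional aminopropyl group. Without stated doses or times in the labels, the treatments cannot be matched by either. Nothing says that replicate arrays came from separate cultures, so their spread may be technical. In bulk RNA a lower level per cell and fewer expressing cells cannot be told apart.

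The arrays named control 2, control 3 and spermine 1 stood apart together. Their deviations from their group means correlated pairwise between 0.495 and 0.587 across 5102 genes, which are not independent replicates. Values of members and gene lists are in part also given without some or all of control 2, control 3 and spermine 1. Deviations of all other array pairs correlated less, at most 0.442 (control 1 and control 5). Those of spermidine 2 and spermidine 3 correlated at 0.348. Signals below are the deposited linear values in arbitrary units, while log2 differences come from quantile normalized values.

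YRO2 was the member with the clearest separation between groups. In controls its signal was 183 on control 1, 516 on control 2, 525 on control 3, 336 on control 4 and 139.6 on control 5. With spermidine it was 66.4, 22.2, 57.3, 44.0 and 53.2 on arrays 1 to 5, and with spermine it was 849.5, 848 and 258 on arrays 1 to 3. Every spermidine array lay below every control and every spermine array, whereas controls and spermine arrays overlapped. The lowest value, on spermidine 2, was 1.24 times the background level of that array, and the other spermidine arrays were between 2.10 and 7.12 times theirs. YRO2 averaged 48.6 ± 16.8 under spermidine (SD, n = 5), against 340.1 ± 180.4 for the controls (SD, n = 5) and 652 ± 341 under spermine (SD, n = 3).

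**Figure D1:**
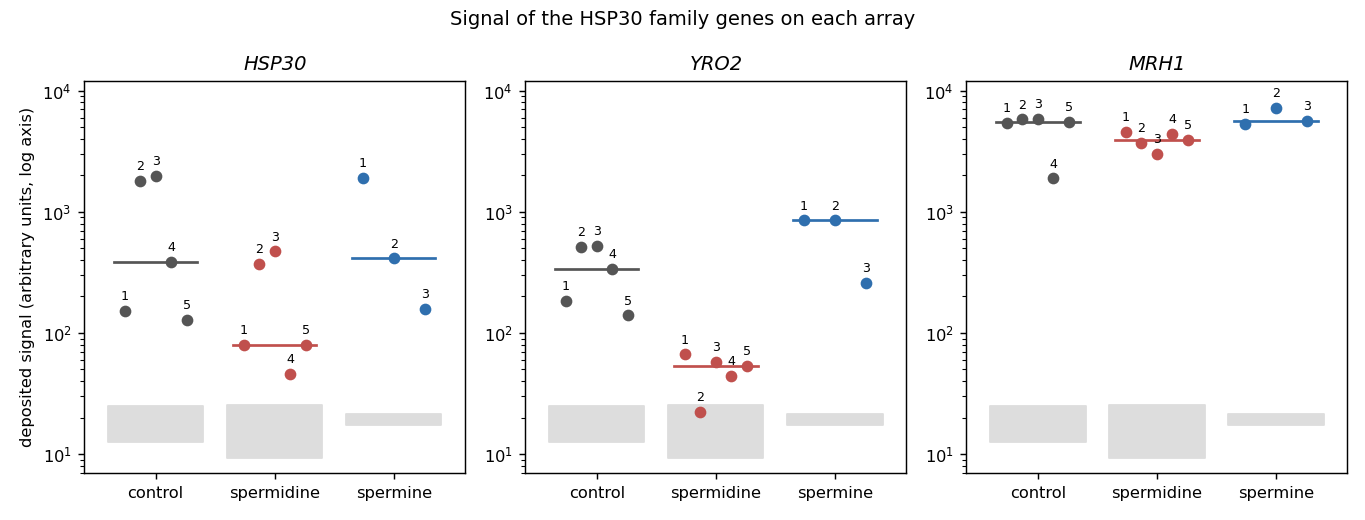
Deposited signal of HSP30, YRO2 and MRH1 on each array (log axis, arbitrary units), by group, with replicate numbers beside the points and a line at the group median. Grey boxes span the arrays' background levels; the 5 spermidine points of YRO2, from 22.2 to 66.4, lie below all other YRO2 points, HSP30 is spread over more than 10-fold in each group, and control 4 stands alone for MRH1 at 1886.

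The HSP30 signal varied as widely within a group as between groups. Controls 2 and 3 reached 1811 and 1983, control 4 was at 389, and controls 1 and 5 were at 152 and 128, so that the highest control was 15.5 times the lowest. With spermidine, arrays 2 and 3 were at 370 and 472, and arrays 1, 4 and 5 at 79.5, 45.7 and 80.1. With spermine the 3 arrays were at 1912, 412 and 157. All 3 groups therefore overlapped, and the 3 highest arrays were those that stood apart together. The median HSP30 signal was 389 for controls, 80.1 under spermidine and 412 under spermine. Within groups the SD of HSP30 on the log2 scale was 1.86 (control), 1.56 (spermidine) and 1.82 (spermine), and at most 0.196% of the 5102 genes had a larger SD in any of these groups.

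The MRH1 signal was even on most arrays. It was 5436, 5783, 5849 and 5487 on controls 1, 2, 3 and 5, and 1886 on control 4. With spermidine it was 4535, 3678, 3006, 4361 and 3910 on arrays 1 to 5, and with spermine 5281, 7184 and 5668 on arrays 1 to 3. All spermidine arrays lay below all spermine arrays and below the 4 controls other than control 4, which was lower than any other array. Its SD on the log2 scale was 0.70 (control), 0.32 (spermidine) and 0.18 (spermine), and 5.9%, 34.1% and 64.7% of genes had a larger SD in the same groups.

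The first comparison of the series asks which genes respond to spermidine. YRO2 was 6.51-fold lower with spermidine than in controls (log2 -2.70 ± 0.42, SE, 95% interval -3.59 to -1.81), the 20th lowest value among 5102 genes. With a pseudocount of 64, which damps differences between dim signals, its log2 difference was -1.75 ± 0.32 (SE). HSP30 had a log2 difference of -1.83 ± 0.92 (SE, 95% interval -3.80 to 0.13), with 20 of 25 spermidine and control array pairs lower with spermidine. The log2 difference of MRH1 was -0.19 ± 0.27 (SE, 95% interval -0.76 to 0.39), also with 20 of 25 pairs lower with spermidine. In the limma fit across all genes (Benjamini-Hochberg adjusted p under 0.05), 1 of 3 members, YRO2, was called lower and 0 were called higher. Of all genes tested 32.7% were called, 14.7% lower and 18% higher. The groups did not overlap for 1 of 3 members, which lay lower, where 9.43% of genes lay lower and 14.2% higher without overlap. These counts describe the members and, since the family was chosen with these values known, are not evidence beyond them.

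Single arrays carried some of these values. Without control 4 the log2 difference of MRH1 was -0.50 ± 0.15 (SE, 95% interval -0.82 to -0.17), and it was then called lower, which made 2 of 3 members. Of all genes tested 13.6% were then called lower and 16.7% higher. Without controls 2 and 3 the difference of HSP30 was -0.55 ± 0.87 (SE, 95% interval -2.42 to 1.32) and that of MRH1 was 0.06 ± 0.30 (SE). YRO2 kept a log2 difference of -2.18 ± 0.42 (SE) without controls 2 and 3. With any other single array left out, the MRH1 value lay between -0.27 and -0.07.

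**Figure D2:**
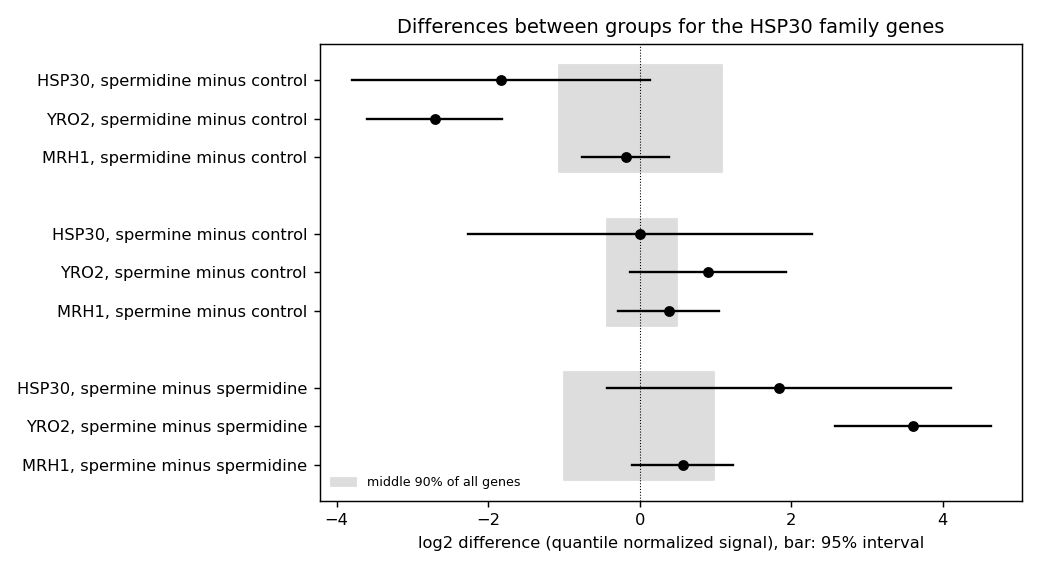
Log2 differences of HSP30, YRO2 and MRH1 between the groups (points, with 95% intervals as bars), beside the range that holds the middle 90% of all 5102 genes (grey). YRO2 lies outside the grey range in all 3 comparisons and its interval excludes 0 in the 2 that involve spermidine, while the intervals of HSP30 are the widest and all include 0.

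Spermine was compared with the same 5 controls, so both comparisons with control share their spread. YRO2 had a log2 difference of 0.90 ± 0.48 (SE, 95% interval -0.13 to 1.93), and 12 of 15 spermine and control pairs were higher with spermine. HSP30 had 0.01 ± 1.06 (SE, 95% interval -2.26 to 2.28) and MRH1 0.38 ± 0.31 (SE, 95% interval -0.28 to 1.05). In the limma fit 0 of 3 members were called, 0 also at an unadjusted p under 0.05, where 0.0196% of all genes tested were called, all of them higher. For 0 of 3 members were the groups apart without overlap, where 3.84% of genes lay higher and 2.57% lower in that way. Without control 4 the MRH1 value was 0.07 ± 0.17 (SE). Without controls 2 and 3 and spermine 1 the HSP30 value was 0.32 and that of YRO2 1.12. With single arrays left out, the HSP30 value lay on either side of 0, from -0.97 without spermine 1 to 0.84 without spermine 3.

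The direct comparison of the polyamines gave the widest separation. YRO2 was 12.1-fold higher with spermine than with spermidine (log2 3.60 ± 0.48, SE, 95% interval 2.58 to 4.63), and ranked 3 from the highest among 5102 genes. With the pseudocount of 64 it was at 2.52 ± 0.37 (SE). HSP30 had a log2 difference of 1.84 ± 1.06 (SE, 95% interval -0.43 to 4.11) and overlapped, with 12 of 15 pairs higher with spermine. MRH1 did not overlap between the polyamines and was 1.48-fold higher with spermine (log2 0.57 ± 0.31, SE, 95% interval -0.10 to 1.24). Of 3 members 1 was called higher in the limma fit, where 20.8% of all genes were called, 9.45% higher and 11.3% lower. The groups did not overlap for 2 members, which lay higher, where 12.9% of genes lay higher and 14.9% lower without overlap. MRH1 was called as well, for 2 of 3 members, when control 4 was left out, with the same difference and an SE of 0.16. Of all genes tested 9.02% were then called higher and 11.2% lower. HSP30 stood at 0.87 ± 0.86 (SE) without controls 2 and 3 and spermine 1, and YRO2 at 3.31 ± 0.47 (SE).

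**Figure D3:**
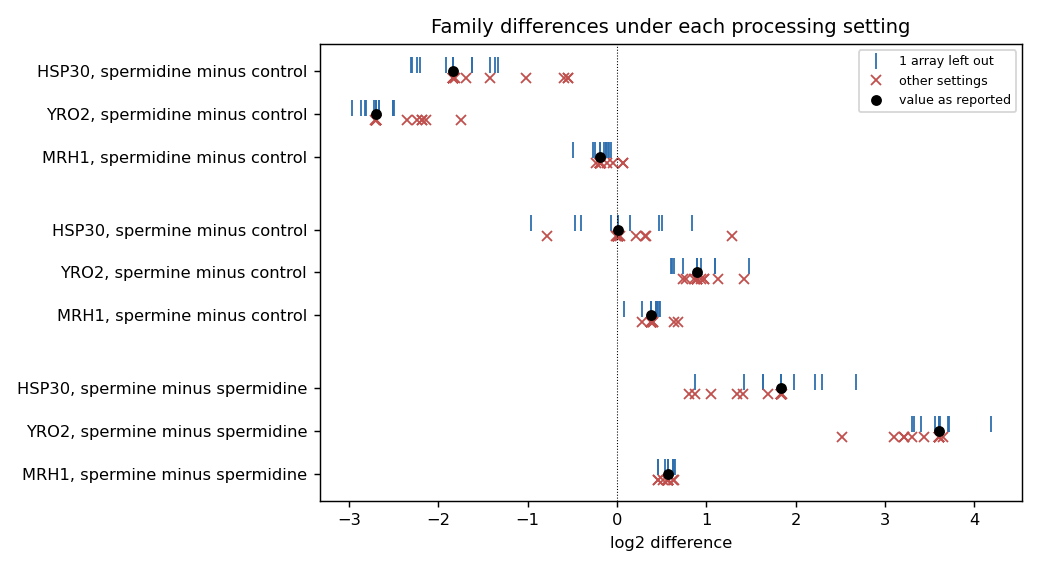
Log2 differences of the 3 genes under every processing setting: the value as reported (black), each of 13 arrays left out (blue ticks) and 13 other settings (red crosses). YRO2 stays below 0 for spermidine against control (-2.97 to -1.75) and above 0 for spermine against spermidine (2.52 to 4.18), whereas HSP30 with spermine ranges from -0.97 to 1.29.

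The proton pump that Hsp30 restrains was followed through 9 genes, all of which were tested. This list and those below were chosen with earlier results of these arrays known. Their counts and p-values therefore describe the listed genes and are not independent evidence. With spermidine 1 of 9 was called lower and 0 higher (median log2 -0.25, against 0.02 over all genes), where 14.7% of all genes were called lower. AST1, which encodes a protein that helps deliver Pma1 to the plasma membrane, fell by 0.95 on the log2 scale (SE 0.20, limma adjusted p = 0.00255), from 416 ± 119.8 (SD, n = 5) to 213 ± 19.0 (SD, n = 5). The PMA1 signal was 6366 ± 382 for controls (SD, n = 5), 5595 ± 389 under spermidine (SD, n = 5) and 5992 ± 474 under spermine (SD, n = 3). Its log2 difference was -0.16 ± 0.10 (SE, limma adjusted p = 0.232) with spermidine. PMA2, a second pump gene, and PMP1, a small membrane proteolipid that regulates the pump, had log2 differences of -0.10 and -0.36 (limma adjusted p = 0.684 and 0.0510). Without controls 2 and 3 PMP1 was called as well (log2 -0.41, limma adjusted p = 0.0462), for 2 of 9 genes. The median of the list was then closer to that of all genes, at -0.06. The count of this list was 2 or 3 in 9 of 26 settings, with 2 of 9 called without control 3 and 3 of 9 without spermidine 4 or with array weights. In the direct comparison, where 9.45% of all genes were called higher, 2 of 9 were called higher with spermine, AST1 (log2 0.91, limma adjusted p = 0.0128) and PMP2, the other proteolipid gene (log2 0.56, limma adjusted p = 0.00935), the latter named after its value was seen. Without spermine 2, 1 of 9 was called. Against control 0 of 9 were called with spermine in limma, 0 also at an unadjusted p under 0.05.

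Genes of the weak acid response were taken as a group because YRO2 is a Haa1 target and HSP30 is induced by weak acids. This choice too was made with earlier results of these arrays known. Of 10 genes 9 were tested, TPO3 being too dim. With spermidine 6 of 9 were called lower and 0 higher, beside 14.7% lower among all genes (median log2 -1.21 against 0.02). SPI1, a cell wall mannoprotein gene, fell by 2.26 on the log2 scale (SE 0.61, limma adjusted p = 0.0113), from 1471 to 10620 in controls to 302 to 1571 with spermidine. PHM8, a phosphatase gene, fell by 1.33 (SE 0.46, limma adjusted p = 0.0367) and GPP2, a glycerol phosphatase gene, by 1.29 (SE 0.23, limma adjusted p = 6.61e-04). YGP1, a secreted glycoprotein gene of starved cells, fell by 1.21 (SE 0.29, limma adjusted p = 0.00555). TPO2, a polyamine exporter gene, and PDR12, the pump for weak acid anions, were the other members called lower. Without controls 2 and 3, 3 of 9 were called lower, TPO2, YGP1 and GPP2 (median log2 -0.73), so the count rests in part on those arrays. SPI1 was then at -1.26 (limma adjusted p = 0.0756) and PHM8 at -0.73 (limma adjusted p = 0.237), while GPP2 was at -1.06 and YGP1 at -0.78. The median deviation of these 9 genes from their mean over all arrays was 0.85 on control 2, 0.95 on control 3 and 0.87 on spermine 1, from -0.17 to 0.13 on the other controls, 0.41 and 0.22 on spermine 2 and 3, and from -0.78 to -0.47 on the spermidine arrays.

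With spermine 0 of the 9 weak acid genes were called in the limma fit against control, and 1 at an unadjusted p under 0.05 (median log2 -0.01). The median was 0.53 without controls 2 and 3, and 0.28 without these and spermine 1, with 0 of 9 called each time. Between the polyamines 6 of 9 were called higher with spermine, beside 9.45% of all genes (median log2 1.23 against 0.01). SPI1 was higher with spermine by 2.25 ± 0.71 on the log2 scale (SE, limma adjusted p = 0.0364), and GPP2 by 1.11 ± 0.27 (SE, limma adjusted p = 0.00875). Without spermine 1, and again without spermine 2, 2 of 9 were called, and 5 of 9 without controls 2 and 3 and spermine 1.

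Of the transcription factors HSF1, MSN2, MSN4, HAA1 and WAR1, which act in heat, general stress and weak acid responses, 1 of 5 was called with spermidine. WAR1, the regulator of PDR12, rose by 0.83 on the log2 scale (SE 0.20, limma adjusted p = 0.00485), from 102.4 ± 23.1 (SD, n = 5) to 183 ± 50.7 (SD, n = 5). Of all genes 18% were called higher and 32.7% in either direction. With the stricter filter on dim probe sets, WAR1, the dimmest of these genes, was not tested, which left 0 of 4 called, and without controls 2 and 3 it stood at 0.74 (limma adjusted p = 0.0119). The general stress factor genes MSN2 and MSN4 both had log2 0.07 (limma adjusted p = 0.742 and 0.865). HAA1, given after its values were seen because YRO2 is a Haa1 target, had a log2 difference of 0.09 ± 0.21 (SE, limma adjusted p = 0.781). Its signal was 249.5 ± 68.9 for controls (SD, n = 5), 269 ± 86.9 under spermidine (SD, n = 5) and 262 ± 12.4 under spermine (SD, n = 3). HSF1, for the heat shock factor, had log2 0.11 with spermidine (limma adjusted p = 0.682) and was lower with spermine than with spermidine (log2 -0.85 ± 0.22, SE, limma adjusted p = 0.0143), a call lost when spermine 3 was left out. Against control 0 of 5 were called with spermine in limma, and 1 of 5 at an unadjusted p under 0.05.

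Among heat shock protein genes outside the family, 11 of 12 were tested, SSA3 being too dim, and 3 of 11 were called lower with spermidine and 0 higher (median log2 -1.09 against 0.02), beside 14.7% lower among all genes. HSP104, a disaggregating chaperone, fell by 1.96 on the log2 scale (SE 0.42, limma adjusted p = 0.00237). HSP12, a small membrane-stabilising protein gene, fell by 1.53 (SE 0.21, limma adjusted p = 8.48e-05) and HSP82, an Hsp90 chaperone gene, by 1.02 (SE 0.35, limma adjusted p = 0.0374). HSP10, which was not called, had log2 -0.06 (SE 0.22, limma adjusted p = 0.856). The median of this list was -0.11 without controls 2 and 3, with 2 of 11 called lower, since HSP82 was then at -0.51 (limma adjusted p = 0.25) and no longer called. HSP104 was at -1.35 and HSP12 at -1.29 without these controls. With spermine against control 0 of 11 were called in limma, 0 also at an unadjusted p under 0.05. Between the polyamines 2 of 11, HSP12 and HSP104, were called higher with spermine, beside 9.45% of all genes, and 1 of 11 without control 4, spermine 1, spermine 3 or any 1 spermidine array. The median deviation of the 11 genes was 1.49 on control 2 and 1.58 on control 3. On controls 1, 4 and 5 it was -0.47, 0.46 and -0.41, and among the spermine arrays spermine 1 was the highest and the others were at -0.31 and -0.23. Spermidine 2 and 3, on which HSP30 was at 370 and 472, had median deviations of -0.56 and -0.53, where the spermidine arrays ranged from -0.61 to -0.38. The part of these array differences in the HSP30 values was not tested.

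**Figure D4:**
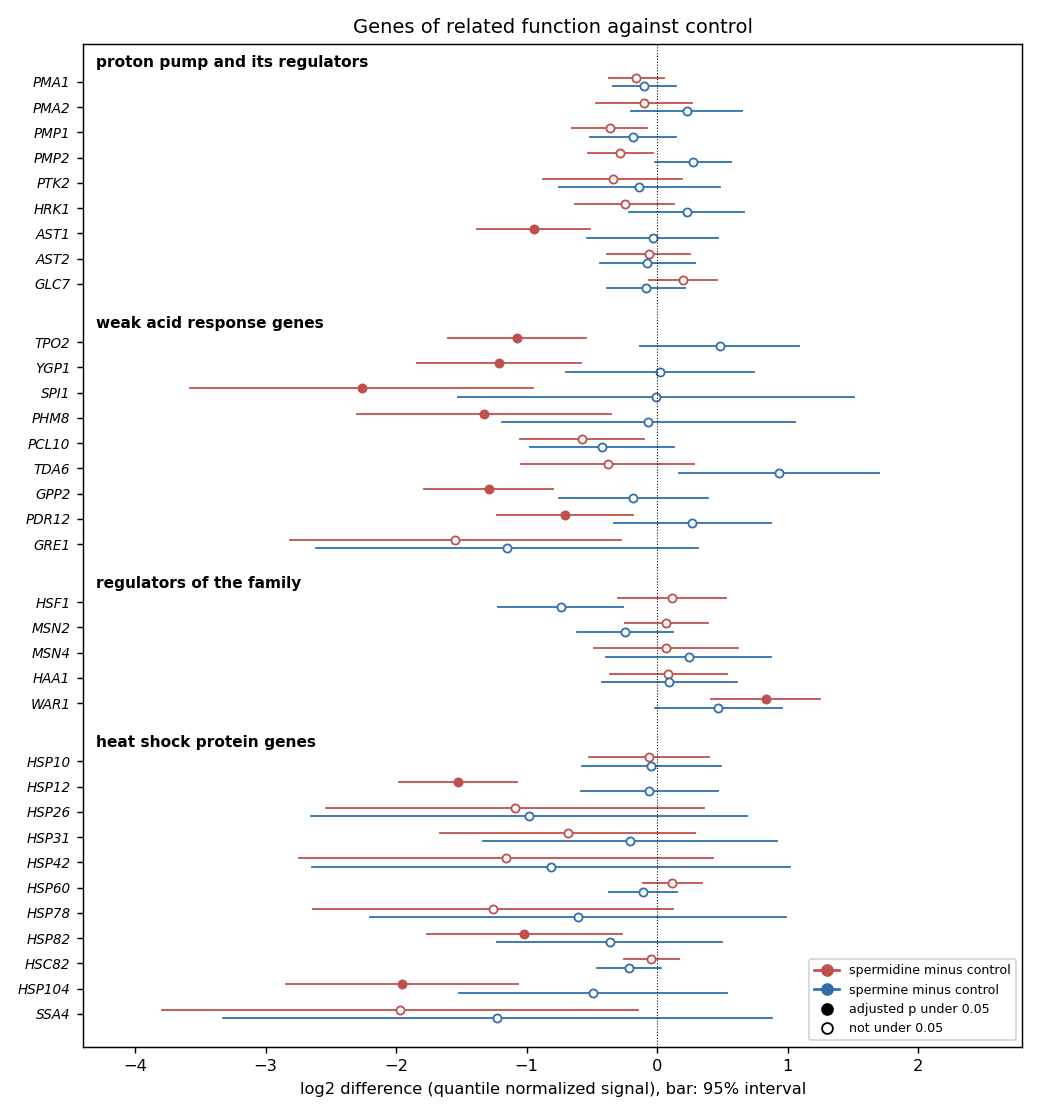
Log2 differences against control of tested genes of 4 lists, with spermidine (red) and spermine (blue), bars showing 95% intervals and filled points an adjusted p under 0.05. Filled red points stand at 6 of 9 weak acid genes, 3 of 11 heat shock protein genes, AST1 and WAR1, and no blue point is filled.

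The genes whose pattern was most like each member over the 13 arrays differed between members. This likeness, Pearson's r of log2 normalized signal, is a description over arrays that share their groups and their array effects. For HSP30 the closest were EMI2 (r = 0.95), VHS1 (0.94), BTN2 (0.94), YGR210C (0.94) and RGI1 (0.93), and r of the deviations from group means was 0.91 to 0.98 for these 5. Spearman's rho was 0.86 for EMI2, 0.90 for DPC25 of YRO2 and 0.79 for ARP3 of MRH1, the closest gene of each member. BTN2, which encodes a factor that gathers misfolded proteins, had 5066 on control 2, 3482 on control 3 and 3342 on spermine 1, and between 87.6 and 1523 on the other arrays. For YRO2 the closest were DPC25 (r = 0.95), the helicase gene DBP6 (0.95), YDR222W (0.95), the cytochrome oxidase assembly gene COX19 (0.94) and LSO2 (0.94), with lower r of 0.64 to 0.81 for the deviations from group means. YDR222W lay between 110.8 and 178 on the spermidine arrays, between 258 and 499 on controls and between 304 and 617 with spermine, without overlap between spermidine and either other group.

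MRH1 had few close genes, 3 with r above 0.8 (0.0588% of 5101 genes), where YRO2 had 151 (2.96%) and HSP30 75 (1.47%). The closest were ARP3 (r = 0.87), of the actin-nucleating Arp2/3 complex, the drug exporter gene SNQ2 (0.83), YGR127W (0.81), NVJ1 (0.80) and VPS33 (0.78). Leaving out control 4 and spermidine 3, the arrays farthest from the median of MRH1, r with ARP3 was 0.44 and with the other 4 between 0.54 and 0.68, so the likeness rests in part on those arrays. On control 4 ARP3 was at 982, and on all other arrays between 1372 and 2135. For HSP30 the 2 arrays farthest from its median were spermidine 4 and spermidine 1, and r without them was between 0.90 and 0.93. For YRO2 they were spermidine 2 and spermidine 4, with r then between 0.90 and 0.97. Controls 2 and 3 and spermine 1 stayed in, so this step cannot show how far the likeness of HSP30 rests on them.

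**Figure D5:**
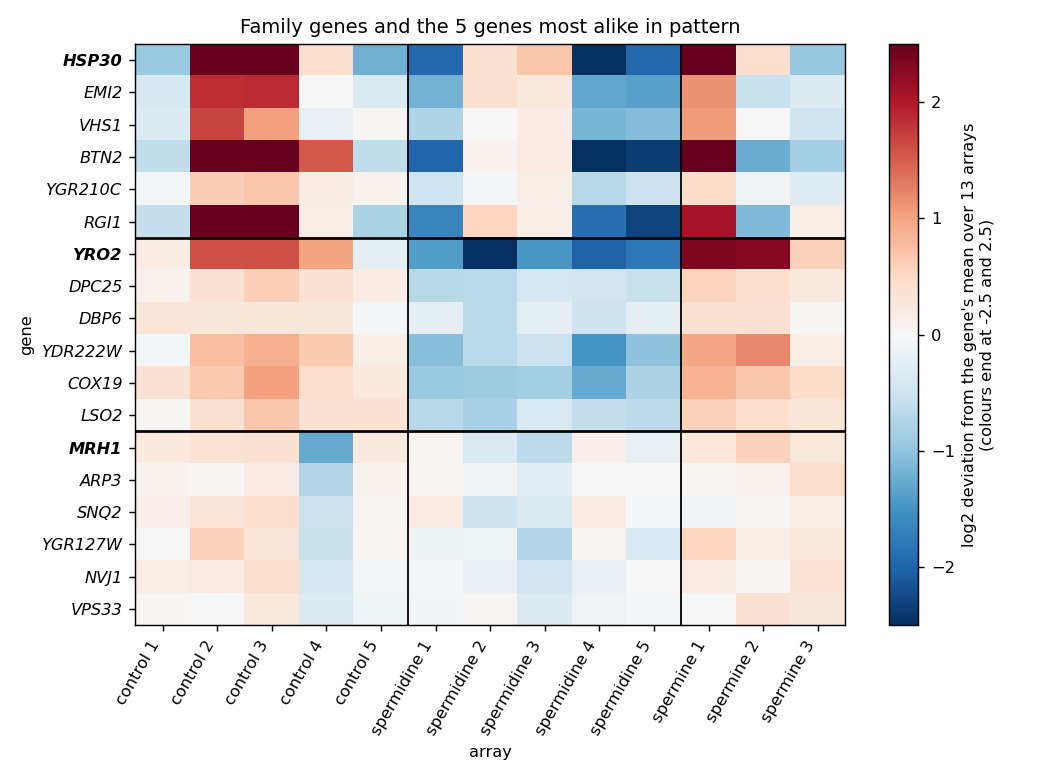
Log2 deviation of each gene from its mean over the 13 arrays (colour, red above and blue below), for HSP30, YRO2 and MRH1 and under each the 5 genes of highest Pearson r. The HSP30 block is reddest on control 2, control 3 and spermine 1, and the YRO2 block is blue on the spermidine arrays. In the MRH1 block, MRH1, ARP3 and SNQ2 are bluest on control 4, and YGR127W, NVJ1 and VPS33 on spermidine 3.

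Genes next to the members on the chromosome were taken from the reference gene table of assembly R64. With spermidine against control, 14.7% of all genes tested were called lower and 18% higher, and calls among neighbours are to be read beside these shares. HTL1, a chromatin remodelling subunit gene next to HSP30, fell by 1.01 on the log2 scale with spermidine (limma adjusted p = 0.00987). HTL1 was also higher with spermine than with spermidine (log2 0.97, limma adjusted p = 0.0375), where no other neighbour tested was called. YCR022C on the other side of HSP30 had no probe set naming it alone. Beside YRO2, YBR053C had log2 -0.64 and PRP6, a splicing factor gene, 0.14 with spermidine (limma adjusted p = 0.114 and 0.682). LYS14, the activator of lysine synthesis genes that lies beside MRH1, rose by 0.70 (limma adjusted p = 0.0183). On the other side of MRH1 lies the noncoding SUT053, with no probe set naming it, and beyond it PST2, added once SUT053 was found to have no value, which rose by 0.68 (limma adjusted p = 0.0115).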

How the data were processed

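The deposited values are linear probe set intensities that the authors made with MAS5, per the submitters' processing notes, and a 2% trimmed mean near 500 on each array shows 1 scaling factor per array. The members and gene lists were chosen with earlier results of these data known. Of 9335 probe sets, 60 are controls, 6504 name 1 gene, 2443 none and 328 several by the platform annotation, and all 5656 genes matched the reference table. Array medians ranged from 124.9 to 161.5, so the linear values were quantile normalized and then taken to log2, without a pseudocount. The dimmest 25% of probe sets by mean signal (under 40.4) were left out, a gene took its brightest probe set, leaving 5102 genes with all 3 members. Each member also exceeded that limit in its spermidine mean. The 3 group means were estimated together with limma 3.58.1 in R 4.3.3, using an intensity trend. Adjusted p-values are Benjamini-Hochberg over all genes tested. This fit was run on simulated data with noise independent between arrays. The deviations that arrays share here were absent from it, so that run cannot speak to them. Genes described with values are the members, SPE3 and FMS1, the 5 genes most alike per member and the neighbouring genes. From each list they are up to 4 genes, with those called with spermidine first. PMP2 and HAA1 were added after their values were seen, and other list genes are named only as called. Samples with the same replicate number did not deviate together: 1 of 11 such pairs between groups had a correlation above 0.1. Alternatives covered normalization, pseudocount, filter, probe set summary, trend, array weights, groups fitted, blocks and arrays left out. Promoter and protein sequences were not analysed here. Plots came from matplotlib 3.10.9 (Python 3.11.15).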

Additional observations from a re-analysis of the deposited data

Results flagged for a closer look

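MRH1 on control 4 lay apart from the other controls: its gap to the next lowest control, 1.49 log2 units, took 0.912 of the whole range of the group, above the critical share of 0.71 for 5 samples, which chance exceeds in about 1 group in 20. Control 4 stood alone as the lowest control in this way for 39 of 5102 genes (0.764%), 6 of them with a gap as large as that of MRH1 or larger, and the other controls did so for 16 to 51 genes.

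YRO2 differed between the polyamine treatments, by 3.60 on the log2 scale for spermine minus spermidine in the fit across all genes, with all 15 array pairs in that direction. The family was chosen with such values known, so this is a description.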

How the results depend on the processing

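The 9 differences of the 3 genes were recomputed under 26 settings, 13 of which leave out 1 array each, giving 234 values. Of these 2 moved by more than the spread between replicates, taken as the pooled SD within groups (log2 1.74 for HSP30, 0.77 for YRO2 and 0.49 for MRH1). Both did so with a pseudocount of 64, which shrinks differences of dim genes. YRO2 was then at -1.75 for spermidine against control and at 2.52 for spermine against spermidine, and was called in both. For HSP30 the limit is so wide that large shifts stayed within it. Without controls 2 and 3 its value went from -1.83 to -0.55 for spermidine against control. For spermine against control it went from 0.01 to 1.29. YRO2 was called in all 26 settings in both comparisons that involve spermidine, and HSP30 in 0 of 26 in any comparison. The settings share their arrays and the family was chosen with these values known. Counts of member calls over settings are therefore descriptions and not evidence. MRH1 for spermidine against control was at 0.06 without controls 2 and 3, and HSP30 for spermine against control was at -0.78 with the replicate block. The number of members called for spermidine against control was 1 to 2 with single arrays left out and 1 in the other settings, and for spermine against spermidine it was 1 to 2 with single arrays left out and 2 with only the 2 groups compared. It was 0 throughout for spermine against control. Among all genes tested, 1461 to 1662 were called for spermidine against control with single arrays left out, and 1307 to 1967 in the other settings. For spermine against spermidine these numbers were 728 to 1087 and 626 to 1374. With the replicate block, YRO2 was at -2.70 and MRH1 at -0.19 for spermidine against control, and no call of a member changed. With spermine minus spermidine the block left 2 of 9 weak acid genes called, 1 of 9 proton pump genes, 1 of 11 heat shock protein genes and 0 of 5 regulators, and 626 of 5102 genes in place of 1061. For spermine against control, all genes called numbered 46 with array weights, 17 with the arrays that stood apart as a block, 13 without controls 2 and 3, 2 with the replicate block and 0 to 4 with single arrays left out, in place of 1. For spermidine against control, large changes in the calls among lists came in 9 settings for proton pump genes (to 2 or 3). They came in 2 settings for weak acid genes (to 3) and in 1 for regulators (to 0). Smaller changes are not in these counts. Weak acid genes called numbered 4 to 7 with single arrays left out and 3 to 6 in the other settings. Heat shock protein genes called numbered 2 to 4 with single arrays left out and 2 to 3 in the other settings. Signal over background limits the lowest YRO2 values.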
